A study of Mus musculus with 10 samples.

Results

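Loss of Zeb2 alone was examined in type 1 conventional dendritic cells (cDC1s) of the mouse spleen by comparing 3 arrays titled ZKO with 3 arrays titled WT, 6 of the 10 arrays of the series. Both groups are cDC1s sorted from spleens digested with collagenase and DNase. The WT group has the genotype WT and the other the genotype Zeb2 KO, and the labels name no further allele and no agent that both would share. For the allele, any Cre driver, the strain, the age, the number of animals behind a sample and the sorting gate, nothing was given in the sources used. The other 4 arrays, 2 Nfil3 Zeb2 DKO and 2 Zeb2 Id2 DKO, entered the estimate of the spread and the comparison of called genes. Nothing states that replicates came from separate animals, so p-values measure the spread between these samples, which may be technical.

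Zeb2 encodes a zinc finger repressor that binds the E-box core CACCT and recruits corepressors such as CtBP. It is best known for holding down epithelial genes, and in myeloid progenitors it favours monocytes, plasmacytoid dendritic cells and cDC2s over cDC1s. cDC1s depend on Irf8, Batf3 and Id2, take up dead cells through Clec9a, and cross-present antigen to CD8 T cells. In a mature state they raise costimulatory ligands, Ccr7 and interleukin-12.

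The platform was the Affymetrix Mouse Gene 1.0 ST array, which carries probe sets over whole transcripts. Levels below are log2 of the deposited intensities, and differences are log2 fold changes, Zeb2 KO minus WT. Expression was tested for 19938 genes, each by 1 probe set, with limma, and a gene was called at a Benjamini-Hochberg adjusted p under 0.05. The number of arrays limits the precision: the median 95% confidence interval reached 0.215 log2 to either side of the estimate. Median intensities of the 6 arrays were 76.3 to 82.9. Zeb2 KO replicate 3 stood apart from the other 5 arrays. In it 129 genes lay at least 0.5 log2 above and 516 at least 0.5 log2 below the range of the other 5, against 5 to 37 above and 5 to 14 below for each of the others. Counts and medians that this array moves are therefore given with and without it.

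The cells carried the defining genes of cDC1s in both groups. Irf8, the lineage-defining transcription factor, stood at 12.53, 12.55 and 12.45 in WT and at 12.71, 12.58 and 12.71 in Zeb2 KO. The chemokine receptor gene Xcr1 read 11.63, 11.48 and 11.61 against 11.71, 11.78 and 11.40, and Batf3 10.04, 10.23 and 10.41 against 10.32, 10.08 and 10.47. None of 30 measured cDC1 identity genes was called, and their median difference was -0.03 against -0.003 over all genes (0.02, again with 0 calls, without Zeb2 KO replicate 3). At an unadjusted p under 0.05, 4 were lower (13.3%, against 3.76% of all genes) and 2 higher (6.67%, against 3.64%). With arrays left out the 4 became 3 to 6 and the 2 became 0 to 4. All Zeb2 KO arrays lay below all WT arrays in 5 members (16.7%, against 5.03%) and above them in 3 (10.0%, against 5.37%). The largest differences among the 30 genes were those of Itga8, an integrin chain (-0.51, adjusted p = 0.376), Cd8a, the CD8 alpha chain of splenic cDC1s (-0.41, adjusted p = 0.370), and Ly75, the endocytic receptor DEC-205 (-0.39, adjusted p = 0.419). For all 3 genes the 3 Zeb2 KO arrays lay below the 3 WT arrays.

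The targeted gene did not separate the groups. Zeb2 read 6.002, 5.93 and 6.30 in WT and 6.10, 6.27 and 5.40 in the arrays labelled Zeb2 KO, which overlap (difference -0.16 [-0.59 to 0.27], adjusted p = 0.929). Where this probe set lies relative to a deleted part is unknown here, so its level checks nothing about the deletion. Its relative Zeb1, another repressor of the family, had a difference of 0.08. Of 20 ZEB factors and corepressors none was called (median 0.01).

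In Zeb2 KO against WT 4 genes were called (0.0201% of those tested), 1 higher (0.00502% of all genes) and 3 lower (0.015% of all genes). The riser was Ngp, a neutrophilic granule protein of the cathelicidin type. The genes that fell were Rtn1, a reticulon that shapes the endoplasmic reticulum, Zfyve9, which encodes the SMAD anchor SARA of the TGF-beta receptor complex, and Cd80, the costimulatory ligand of CD28 and CTLA-4.

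Ngp read 8.57, 8.37 and 8.71 in WT and 12.18, 11.25 and 11.24 in Zeb2 KO. Every Zeb2 KO array was far above every WT array, and replicate 1 was the highest. Means were 8.55 ± 0.17 and 11.56 ± 0.54 (SD, n = 3 each), an 8.06-fold rise (log2 3.01 [2.25 to 3.77], limma adjusted p = 0.0255).

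Rtn1 read 9.48, 9.78 and 9.65 in WT and 8.69, 8.64 and 8.23 in Zeb2 KO. The lowest WT array was 0.79 log2 above the highest Zeb2 KO array. The fall was 2.17-fold (log2 -1.11 [-1.39 to -0.84], limma adjusted p = 0.0255). Rtn1 is also among the genes by which cDC2s are told from cDC1s.

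Zfyve9 read 6.76, 7.08 and 6.93 in WT and 6.04, 6.08 and 5.97 in Zeb2 KO. The Zeb2 KO arrays were close to each other (SD 0.055) and all lay below WT. The difference was -0.89 log2 [-1.10 to -0.68] (limma adjusted p = 0.0255), and Zfyve9 had the smallest p of all genes.

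Cd80 read 10.35, 10.59 and 10.44 in WT and 9.64, 9.76 and 9.85 in Zeb2 KO. Again the groups did not overlap. The fall was 1.64-fold (log2 -0.71 [-0.91 to -0.51], limma adjusted p = 0.0442), and a second probe set of Cd80 had a difference of -0.88.

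The calls depended on single arrays, the sizes less so. With arrays left out in turn, or WT replicate 1 and Zeb2 KO replicate 3 together, the difference of Ngp stayed between 2.70 and 3.18, of Rtn1 between -1.20 and -0.97, of Zfyve9 between -0.97 and -0.81 and of Cd80 between -0.82 and -0.65. None of the 4 was called without WT replicate 2 or 3 or without Zeb2 KO replicate 1 or 2 (adjusted p 0.0578 to 0.228), and all 4 were called without Zeb2 KO replicate 3. Without either Nfil3 Zeb2 DKO array Ngp, Rtn1 and Cd80 missed the threshold (0.0554 to 0.0831), and without either Zeb2 Id2 DKO array Cd80 did (0.0587). Over all 28853 probe sets, those naming several genes or none included, 5 were called (0.0173%).

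The arrays labelled as double knockouts gave levels of the same 4 genes, although the tests of their differences use the Zeb2 KO arrays again. Ngp read 9.73 and 10.41 in Nfil3 Zeb2 DKO and 10.82 and 12.18 in Zeb2 Id2 DKO, all above the highest WT array. Zfyve9 read 6.34 and 6.54 in Nfil3 Zeb2 DKO and 5.38 and 5.43 in Zeb2 Id2 DKO, all below the lowest WT array. Rtn1 (9.03 and 9.10, then 8.59 and 8.72) and Cd80 (10.01 and 10.10, then 9.87 and 9.97) were likewise below every WT array. Of 8 differences from Zeb2 KO tested for these genes 1 passed: Zfyve9 was a further 0.63 log2 lower in Zeb2 Id2 DKO than in Zeb2 KO (limma adjusted p = 0.0295, where 0.497% of all genes were called). Adjusted p rose to 0.0664 when WT replicate 3 was left out, to 0.0741 and 0.0966 for Zeb2 KO replicates 1 and 2, and to 0.322 and 0.234 for the Zeb2 Id2 DKO replicates.

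**Figure D1:**
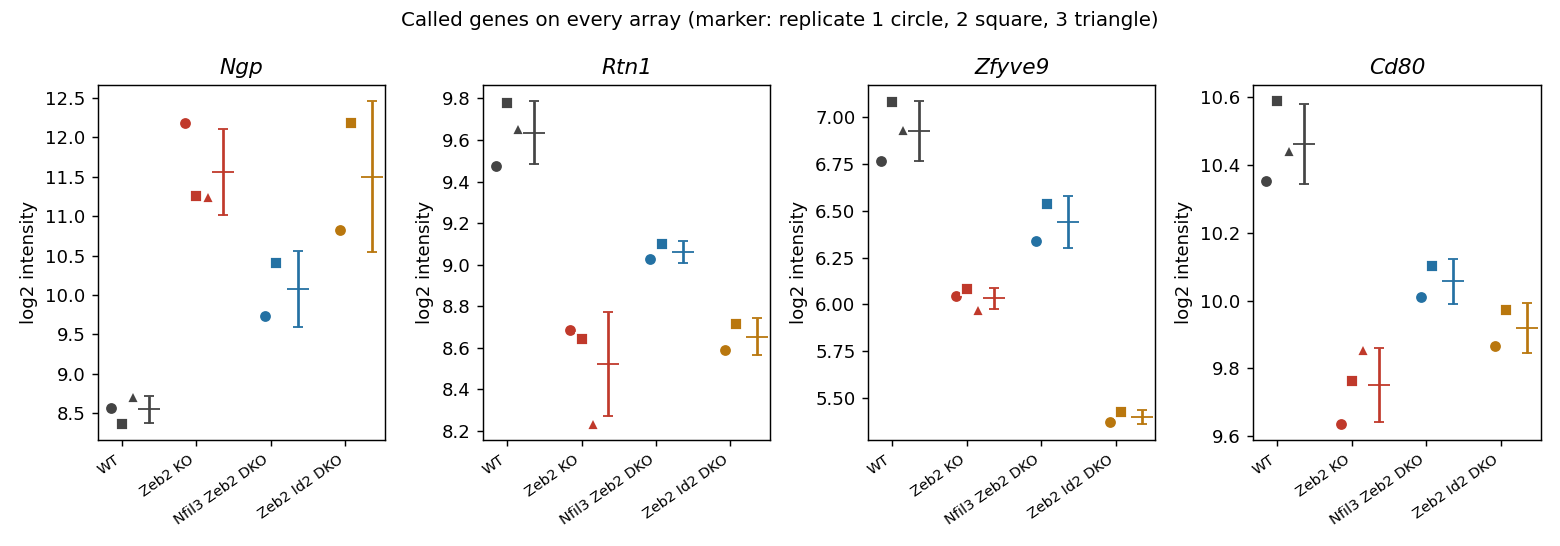
Log2 intensity of the 4 called genes on all 10 arrays by genotype; points are arrays, with the mean and SD beside them. Ngp is above 11.2 on the 3 Zeb2 KO arrays and below 8.8 on the 3 WT arrays, and Rtn1, Zfyve9 and Cd80 are lower on every array labelled as a Zeb2 knockout, single or double, than on any WT array.

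Below the threshold lay 4 more genes with an adjusted p under 0.1, all lower in Zeb2 KO. Adgrl3, an adhesion receptor of the latrophilin family, read 7.90, 8.15 and 7.35 in WT and 6.56, 6.53 and 6.48 in Zeb2 KO (log2 -1.28, limma adjusted p = 0.0508). Il12b, the p40 subunit of interleukin-12, read 11.05, 11.01 and 11.25 against 9.83, 10.01 and 10.20 (log2 -1.09, limma adjusted p = 0.0508). Nr4a3, an orphan nuclear receptor induced by cell activation, read 9.81, 9.99 and 10.05 against 9.28, 9.33 and 9.02 (log2 -0.74, limma adjusted p = 0.0508). Adam22, a catalytically inactive ADAM protein, had a difference of -0.88 (adjusted p = 0.0571). In each of the 4 genes every Zeb2 KO array lay below every WT array. Among the next genes were Clec7a, the beta-glucan receptor Dectin-1 (-1.08), and Cd1d1, which presents lipids to NKT cells (-0.64). Tlr1, a partner of Tlr2, had -0.82 and the semaphorin gene Sema7a -0.84. Their adjusted p was 0.106 to 0.184.

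**Figure D2:**
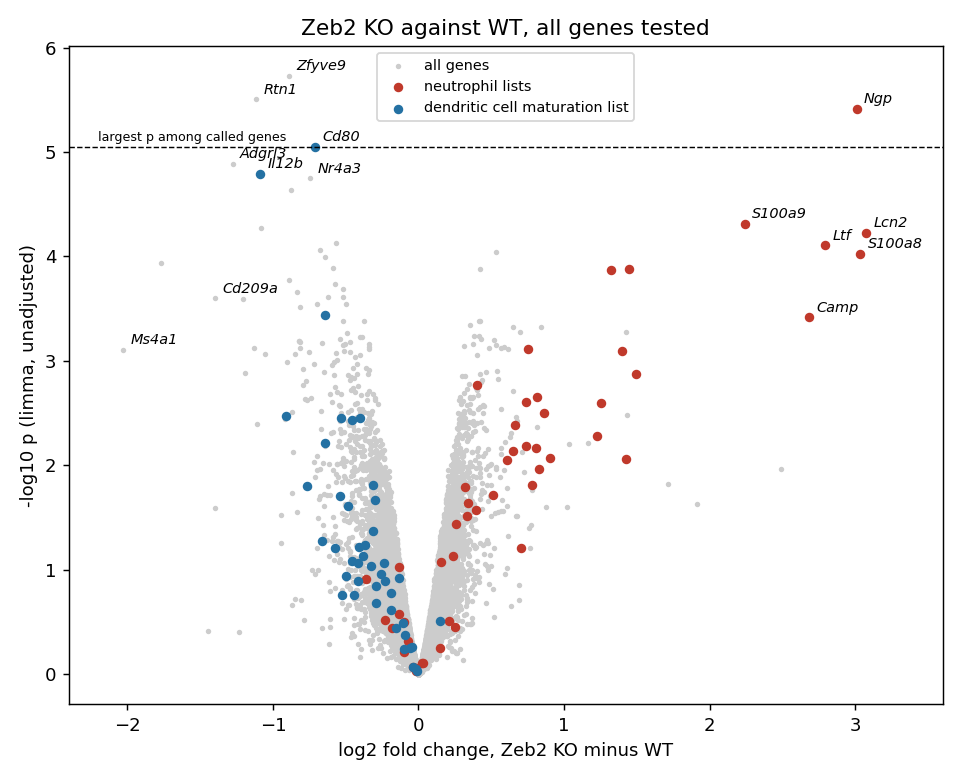
Log2 fold change (x) against -log10 of the unadjusted limma p (y) for 19938 genes; red marks the neutrophil lists, blue the dendritic cell maturation list, and the dashed line the largest p among called genes. Neutrophil genes are among the largest differences to the right, up to 3.07 for Lcn2. The basophil gene Mcpt8 lies there at 2.49 and the eosinophil gene Prg2 at 1.71. The 3 called genes to the left and Ngp reach the line or pass it.

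The largest group of genes with higher levels in Zeb2 KO was that of neutrophil granule and secreted proteins. Neutrophils store these antimicrobial proteins in granules, and their genes are switched on in bone marrow precursors by C/EBP factors. Of 37 measured members of a list of such genes 1 was called, Ngp. At an unadjusted p under 0.05, 27 were higher (background 3.64% of all genes) and 0 lower (background 3.76%). In 28 members all Zeb2 KO arrays lay above all WT arrays, which held for 5.37% of all genes. The median difference of the list was 0.74 log2. This and the other lists were chosen with earlier results of these data known, so shares against all genes are descriptive and no independent test.

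Sequences upstream of gene starts are shown because both ZEB and C/EBP factors have known binding words. Of the 6 genes with the largest positive differences among those whose arrays did not overlap, 4 have windows that hold a searched word. These 4 were chosen for print, and Cd80 is the called gene that fell with one. Mcpt8, a basophil gene with overlapping arrays, had a difference of 2.49, above that of S100a9. The windows of S100a8 and Camp, also among the 6, hold none. Each run holds the 250 bases before the start, 5′ to 3′ on the gene's strand (RefSeq, GRCm38.p6). Capitals mark CACCT, the core of the ZEB word, or TTNNGCAA, a word of the C/EBP kind, each searched on both strands. Where a capital CACCT is followed by g the longer CACCTG is present. The runs lie at chr9:110419558-110419807 (plus strand) for Ngp, chr3:90695722-90695971 (minus strand) for S100a9, chr2:32387740-32387989 (minus strand) for Lcn2, chr9:111019042-111019291 (plus strand) for Ltf and chr16:38458683-38458932 (plus strand) for Cd80.
Ngp: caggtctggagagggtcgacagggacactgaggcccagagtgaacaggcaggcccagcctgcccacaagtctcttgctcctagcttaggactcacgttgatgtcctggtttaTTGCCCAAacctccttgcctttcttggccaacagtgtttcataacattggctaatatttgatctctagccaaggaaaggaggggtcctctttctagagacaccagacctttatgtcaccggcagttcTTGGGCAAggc
S100a9: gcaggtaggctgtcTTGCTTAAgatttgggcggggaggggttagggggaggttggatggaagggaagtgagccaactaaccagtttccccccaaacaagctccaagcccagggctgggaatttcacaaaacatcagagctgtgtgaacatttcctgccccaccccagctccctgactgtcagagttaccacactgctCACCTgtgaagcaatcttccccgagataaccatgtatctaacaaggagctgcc
Lcn2: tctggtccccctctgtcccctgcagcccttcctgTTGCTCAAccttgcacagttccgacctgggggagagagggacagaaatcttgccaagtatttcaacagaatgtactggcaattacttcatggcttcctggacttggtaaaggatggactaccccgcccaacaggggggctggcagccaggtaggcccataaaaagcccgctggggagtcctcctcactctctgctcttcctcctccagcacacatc
Ltf: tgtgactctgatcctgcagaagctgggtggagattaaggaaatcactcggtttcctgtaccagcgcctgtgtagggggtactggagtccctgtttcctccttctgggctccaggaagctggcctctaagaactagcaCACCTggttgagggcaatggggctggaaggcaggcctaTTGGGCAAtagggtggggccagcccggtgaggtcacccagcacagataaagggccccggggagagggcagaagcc
Cd80: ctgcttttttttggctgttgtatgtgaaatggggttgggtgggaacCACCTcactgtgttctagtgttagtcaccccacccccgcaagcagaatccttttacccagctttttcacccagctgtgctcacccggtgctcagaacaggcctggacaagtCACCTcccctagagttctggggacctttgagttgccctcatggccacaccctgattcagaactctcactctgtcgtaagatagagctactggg

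TTNNGCAA was found in 10 of the 31 granule list genes with a promoter in the table (32.3%), against 10.8% of all genes with one and 9.6% of all promoters. It stands at 2 places in Ngp and at 1 each in S100a9, Lcn2 and Ltf, and in no more than these 4 of the 6. CACCTG was found in 29.0% of the granule list genes and in 19.4% of all genes, and CACCT in 61.3% and 49.4%. Among the 4 called genes CACCTG was in 0 windows, and CACCT was in that of Cd80 alone, at 2 places. A match describes these letters only.

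S100a8 and S100a9, whose proteins form the calcium-binding calprotectin, were higher on every Zeb2 KO array. S100a8 read 7.16, 6.88 and 7.28 in WT and 11.03, 9.56 and 9.83 in Zeb2 KO (8.20-fold, log2 3.03, limma adjusted p = 0.117). S100a9 read 7.82, 7.63 and 8.02 against 10.78, 9.63 and 9.79 (4.74-fold, log2 2.24, limma adjusted p = 0.106). Lcn2, which binds bacterial siderophores, read 6.56, 7.29 and 7.07 against 10.76, 9.40 and 9.97 (8.42-fold, log2 3.07, limma adjusted p = 0.107). Its lowest Zeb2 KO array was more than 2 log2 above its highest WT array. Ltf, the iron-binding lactoferrin, read 6.62, 6.94 and 7.004 against 10.39, 8.95 and 9.61 (6.94-fold, log2 2.79, limma adjusted p = 0.117). Camp, the cathelicidin, read 7.97, 7.55 and 8.28 against 11.81, 10.19 and 9.86 (6.44-fold, log2 2.69, limma adjusted p = 0.212). The spread among the Zeb2 KO arrays of Camp, from 9.86 to 11.81, was wider than that among WT arrays.

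Primary granule enzymes gave smaller differences. Mpo, the myeloperoxidase, read 7.47, 6.15 and 7.33 in WT and 8.57, 8.38 and 8.49 in Zeb2 KO (log2 1.49). Prtn3, proteinase 3, had a difference of 1.33 and the neutrophil elastase gene Elane one of 1.26. Hp, which encodes haptoglobin and not a primary granule enzyme, had 1.45. Elane was named after its values were seen. For these 4 genes adjusted p was 0.121 to 0.332, and in each the groups did not overlap. Elane and Mpo belong to early granules and Ltf, Lcn2 and Camp to later ones.

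The surface and signalling genes of neutrophils were higher in part. Of 17 measured, some are also in the granule list. At an unadjusted p under 0.05, 8 were higher (47.1%, against 3.64% of all genes) and 0 lower. Of the 17, 0 were called, and the median was 0.03. Trem1, an amplifying receptor, read 5.32, 5.17 and 5.34 in WT and 7.28, 6.09 and 6.65 in Zeb2 KO (log2 1.40). Ly6g, the surface marker of neutrophils, read 4.96, 4.86 and 4.50 against 5.86, 5.17 and 5.76 (log2 0.83), and the chemokine receptor gene Cxcr2 4.87, 4.93 and 4.74 against 5.79, 5.14 and 5.82 (log2 0.74). Csf3r, the G-CSF receptor, had 0.33, with overlapping arrays. Of the NADPH oxidase genes in this list, Ncf4 had 0.03 and Cybb -0.36, the lowest value of the list. In the granule list, members with little or a negative difference included the lysozyme genes Lyz1 (-0.23) and Lyz2 (-0.02), and Anxa1 (0.15). Of these, Lyz1, Lyz2, Anxa1 and Ncf4 were named after their values were seen. Itgam, the CD11b chain of neutrophils and other myeloid cells, read 6.12, 6.12 and 6.15 against 7.35, 6.71 and 6.76 (log2 0.81).

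The granule genes ran together within arrays. Its mean stood 1.37, 0.68 and 0.83 log2 above the WT mean in Zeb2 KO replicates 1, 2 and 3, and of the 28 members above WT on all arrays 24 were highest in replicate 1 and 0 in replicate 2. Its summed intensity was 5085 to 5837 in WT and 11787 to 22959 in Zeb2 KO. The same sum for the cDC1 identity genes was 70177 to 73654 in WT and 65500 to 75368 in Zeb2 KO. Whether neutrophils among the sorted cells had a part in the result was not tested. In bulk samples, more or fewer cells of a type and more or less RNA per cell cannot be told apart. Without Zeb2 KO replicate 3, 8 granule genes were called higher (0.386% of all genes) and 0 lower (0.441%): Ngp, S100a8, S100a9, Ltf, Camp, Lcn2, Prtn3 and Hp, with adjusted p from 0.00757 to 0.0351.

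Neutrophil genes made up much of all large differences upward. The Zeb2 KO arrays lay above the WT arrays by at least 1.5-fold on average in 50 genes (0.251% of all genes) and below them in 62 (0.311%). Of the 50, 25 belonged to a neutrophil list, which hold 51 measured genes together, and of the 62 none did. Among the 10 largest of the 50, 9 were neutrophil genes, and the tenth was Ly6a2, of the Ly6 surface protein family (log2 1.44). At a difference of at least 2-fold, 17 genes lay above (0.0853%) and 12 below (0.0602%). Other genes of the 50 were Fcgr3, a low-affinity IgG receptor (log2 0.65), Tdgf1, the EGF-CFC factor Cripto (1.43), Lgals9, galectin-9 (0.84), and Cd6, a lymphocyte scavenger receptor (0.70).

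**Figure D3:**
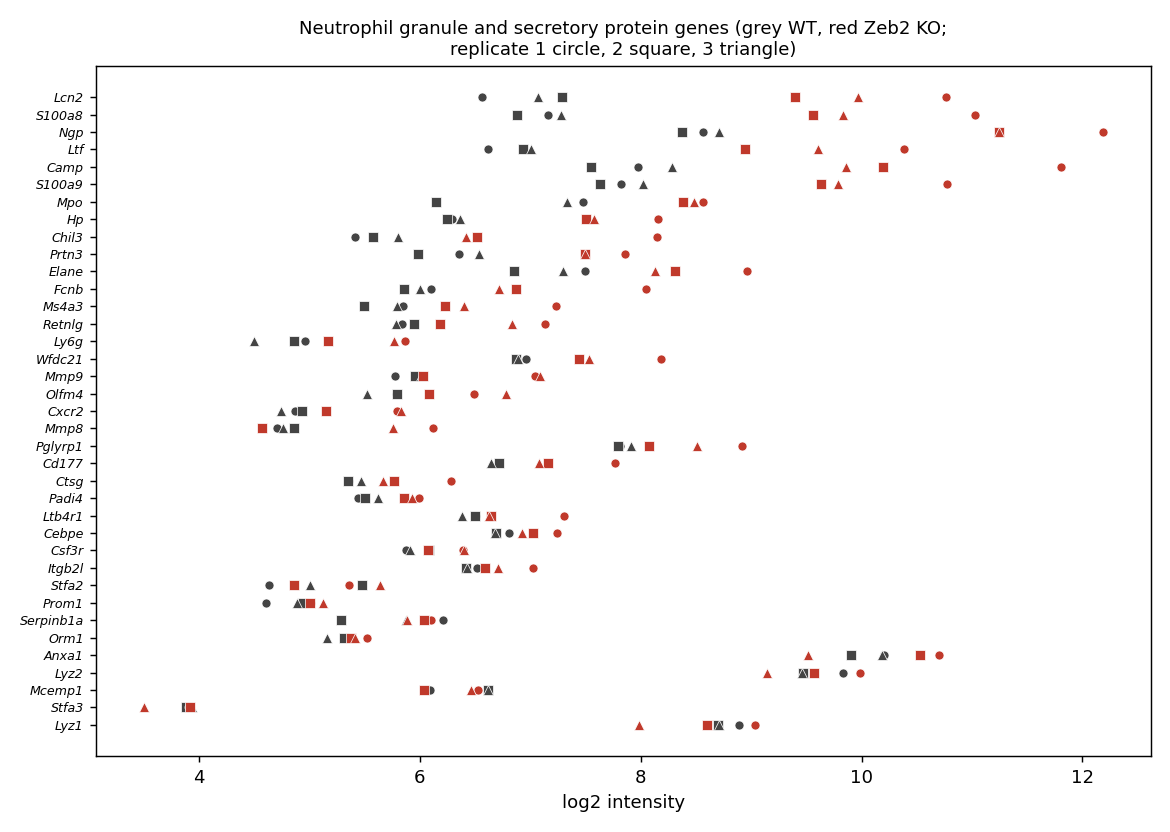
Log2 intensity (x) of the 37 measured neutrophil granule and secretory protein genes (y) on the 3 WT (grey) and 3 Zeb2 KO (red) arrays. In 28 genes every red point lies to the right of every grey one, and replicate 1 (circles) is the highest in 24 of them.

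Myeloid transcription factors of the C/EBP family were looked at for the same genes. Cebpa, which directs granulocyte and monocyte commitment, read 8.13, 7.84 and 7.76 in WT and 8.48, 8.53 and 8.31 in Zeb2 KO (log2 0.53, limma adjusted p = 0.212). Cebpe, which drives secondary granule genes, read 6.80, 6.69 and 6.68 against 7.24, 7.03 and 6.92 (log2 0.34). Both were higher on every Zeb2 KO array, and 0 of 17 factors of the C/EBP and PAR bZIP list was called. Of the 17, 8 had positive and 9 negative differences (median -0.003). At an unadjusted p under 0.05, 3 were higher (17.6%, against 3.64% of all genes) and 0 lower. Without Zeb2 KO replicate 3, Cebpa (log2 0.59, adjusted p = 0.0427) and the clock gene Per2 (log2 0.70, adjusted p = 0.0128) were called higher. In that fit 0.386% of all genes were called higher, and the list median was -0.01. Nfil3, a repressor of the list and the partner gene of one double knockout, had -0.26 with overlapping arrays.

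Among the lists the one with the lowest median was that of dendritic cell maturation. Maturation is the switch from antigen capture to T cell priming, in which cells gain costimulatory ligands, cytokines and the migration receptor Ccr7. Of 44 measured members 1 was called lower, Cd80, and 0 higher. At an unadjusted p under 0.05, 14 were lower (against 3.76% of all genes) and 0 higher (against 3.64%). Of the 44, 43 had negative values, and the median was -0.35 log2. The share of its members lower at that p, 31.8%, was close to that of the cDC2 (33.3%) and T cell (32.0%) lists. The 14 became 9 without WT replicate 3 and 29 without Zeb2 KO replicate 3, where 6.56% of all genes were lower and 5.9% higher at that p. In 11 members all Zeb2 KO arrays lay below all WT arrays, which held for 5.03% of all genes.

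Besides Cd80 and Il12b, the members with small p included Serpinb9, an inhibitor of granzyme B, with 8.06, 7.83 and 8.19 in WT and 7.16, 7.43 and 7.56 in Zeb2 KO (log2 -0.64, limma adjusted p = 0.212). Anxa3, an annexin, read 9.30, 8.51 and 9.02 against 7.64, 8.28 and 8.17 (log2 -0.91, limma adjusted p = 0.357). Cd200, an inhibitory ligand, read 7.93, 7.62 and 7.62 against 6.97, 7.10 and 7.50 (log2 -0.53, limma adjusted p = 0.357). Each of these 3 genes was lower on all Zeb2 KO arrays, by least in replicate 3 for Serpinb9 and Cd200. Traf1, a TNF receptor adaptor induced by NF-kappaB, had -0.40 and Cd40 -0.31. Cd86, the other CD28 ligand, read 12.03, 11.90 and 11.93 against 11.85, 11.96 and 11.92 and was named after its values were seen.

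Replicates differed in this group. The mean of the list stood 0.58, 0.42 and 0.08 log2 below the WT mean in Zeb2 KO replicates 1, 2 and 3, and its summed intensity was 41240 to 42897 in WT against 29961, 32810 and 38295. Several members were low in replicates 1 and 2 and near WT in replicate 3. Ccl22, a chemokine of mature dendritic cells, read 8.13, 8.17 and 8.43 in WT and 7.07, 7.20 and 8.46 in Zeb2 KO. Fscn1, the actin-bundling fascin of mature dendritic cells, read 9.84, 9.32 and 9.40 against 8.38, 8.61 and 9.999. Ccr7 read 11.34, 11.18 and 11.28 against 10.34, 10.73 and 11.26.

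Without Zeb2 KO replicate 3, 165 genes were called (0.828%), 77 higher and 88 lower, and all 4 of the calls above were among them. The maturation list then had 14 members called lower and 0 higher, and its median was -0.44. They were Cd80 (log2 -0.76), Il12b (-1.18), Ccl22 (-1.10), Ccr7 (-0.73), Fscn1 (-1.02), Traf1 (-0.52), Cd200 (-0.69), Serpinb9 (-0.73), Serpinb6b (-0.58), Nudt17 (-0.93), Tnfrsf4 (-0.76), Tnfrsf9 (-0.68), Ccl5 and Arc, with adjusted p from 0.00757 to 0.0499. Ccl22, Fscn1, Nudt17, Tnfrsf4, Tnfrsf9, Ccl5 and Arc are outside the naming rule and were named after their values were seen. Tnfrsf4 and Tnfrsf9 encode the costimulatory receptors OX40 and 4-1BB. Which of the 3 Zeb2 KO arrays is typical cannot be told from these samples.

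**Figure D4:**
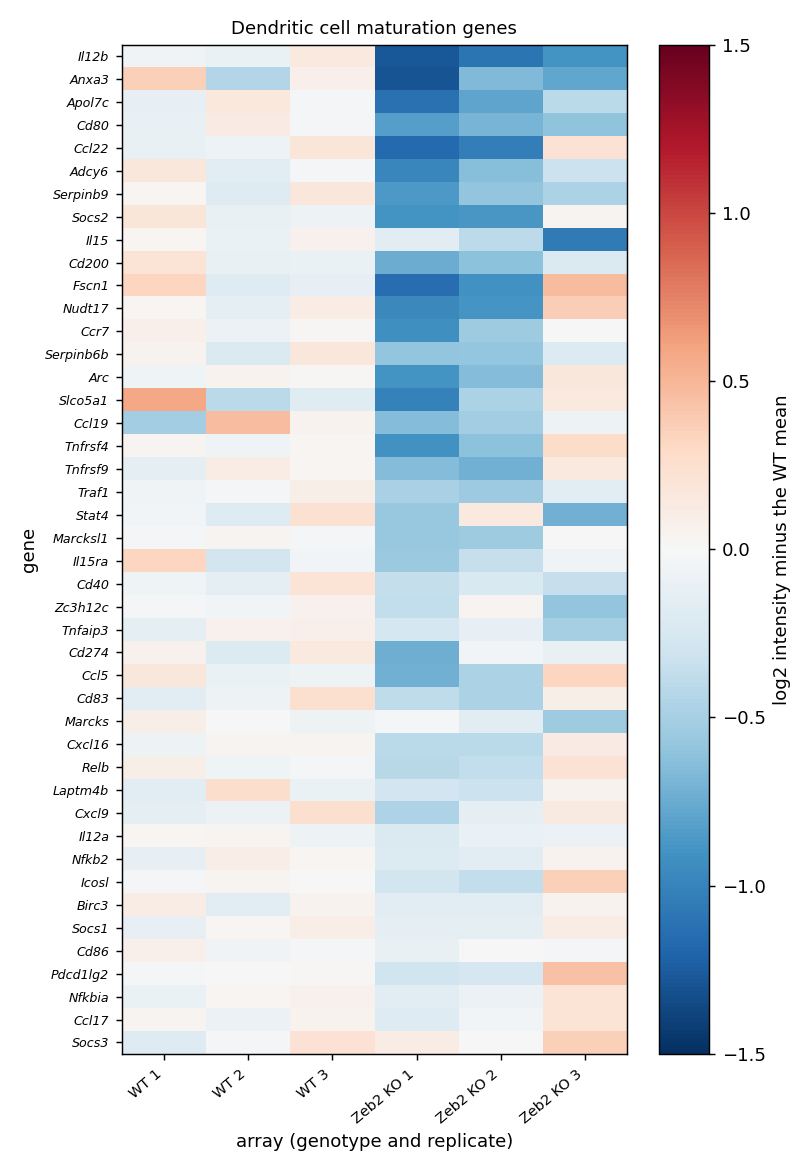
Log2 intensity minus the WT mean for 44 dendritic cell maturation genes (rows, ordered by their difference) on 3 WT and 3 Zeb2 KO arrays (columns); blue is below and red above the WT mean. Most rows are blue in Zeb2 KO replicates 1 and 2, whose list means are 0.58 and 0.42 log2 below WT, and paler or red in replicate 3, where the mean is 0.08 below.

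Neighbouring pathways had the same sign with smaller sizes. The NR4A, immediate early and stress list holds 41 measured genes, which respond to cell activation or tissue handling. At an unadjusted p under 0.05, 12 were lower (29.3%, against 3.76% of all genes) and 0 higher (against 3.64%). The median was -0.22, and 0 were called. Nr4a2, a relative of Nr4a3, had -0.34, Gadd45b, a stress-induced regulator of MAP kinases, -0.60, and Dusp6, an ERK phosphatase, -0.65. WT replicate 1 stood 0.21 log2 below the WT mean in this list. The 12 became 20 without WT replicate 1, 7 without WT replicate 2, 5 without WT replicate 3, 6 without Zeb2 KO replicate 2 and 25 without Zeb2 KO replicate 3. Of 26 NF-kappaB pathway genes 7 were lower (26.9%) and 0 higher (median -0.14). The 7 included Rel, the c-Rel subunit (-0.32), and Malt1, a signalling protease (-0.44). The 7 became 4 when WT replicate 2 or 3 was left out and 11 when Zeb2 KO replicate 3 was. Of 32 costimulatory and coinhibitory ligands 8 were lower, Cd80 included (5 without WT replicate 3), and 1 higher: Tnfsf9, the ligand 4-1BBL, read 8.15, 8.73 and 8.72 in WT and 7.77, 7.79 and 7.90 in Zeb2 KO (log2 -0.72), and the poliovirus receptor gene Pvr had -0.44. Lgals9, the member that was higher, read 8.60, 8.40 and 8.26 against 9.63, 9.14 and 9.03.

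Genes typical of cDC2s were lower in part. Of 27 measured, 9 were lower (33.3%, against 3.76% of all genes) and 1 higher (3.7%, against 3.64%) at an unadjusted p under 0.05. Rtn1 was called, and the median was -0.23. Cd209a, the C-type lectin DC-SIGN homologue, read 6.61, 7.64 and 7.76 in WT and 5.79, 6.13 and 5.90 in Zeb2 KO (log2 -1.40, limma adjusted p = 0.168). Its relative Cd209d had -1.19. Cx3cr1, the fractalkine receptor, read 6.90, 7.41 and 7.45 against 6.25, 6.58 and 6.54 (log2 -0.80), and Csf1r, the M-CSF receptor, had -0.26. For all 4 genes no Zeb2 KO array reached a WT array, and WT replicate 1 was the lowest WT array. Irf4, a transcription factor of cDC2s, overlapped (-0.47). The member that was higher was Itgam. Of the 27, 13 were lower without Zeb2 KO replicate 3. Of 24 monocyte genes 5 were lower (20.8%) and 4 higher (16.7%). The higher ones were Hp, Fcgr3, Chil3 and Ifitm6, of which Hp and Chil3 are also in the neutrophil list. The 5 became 2 without WT replicate 2 and 3 without WT replicate 3, and the 4 became 8 without Zeb2 KO replicate 3. Cd14, the lipopolysaccharide coreceptor, read 8.45, 9.81 and 9.48 against 8.27, 8.38 and 7.77 (log2 -1.11). Of 29 plasmacytoid dendritic cell genes 2 were lower (6.9%) and 0 higher. The lower ones were Cd209d and Cd300c (-0.75). The 2 became 4 when WT replicate 1 or 3 was left out and 7 when Zeb2 KO replicate 3 was. Tcf4, the E protein of that lineage, had -0.20, with overlapping arrays.

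Lists that mark other cells of the spleen differed in sign. Besides the neutrophil genes, erythroid genes had a positive median (0.26), and T cell, B cell and red pulp macrophage genes had negative ones, with most members not passing an unadjusted p under 0.05. Of 25 T cell genes 8 were lower (32.0%, against 3.76% of all genes) and 1 higher (4.0%, against 3.64%) at an unadjusted p under 0.05 (median -0.24). The CD3 chain genes Cd3d (-0.52), Cd3g (-0.46) and Cd3e (-0.31) were lower on all Zeb2 KO arrays, and the summed intensity of the list was 5606 to 6016 in WT and 3887, 4497 and 6180 in Zeb2 KO, so that replicate 3 was above every WT array. The 8 became 5 without WT replicate 3 or Zeb2 KO replicate 1, and 13 without Zeb2 KO replicate 3. Of 24 red pulp macrophage genes 4 were lower (16.7%) and 0 higher. The list mean minus the WT mean was -0.31, -0.25 and 0.04 log2 in Zeb2 KO replicates 1, 2 and 3. Dropping single arrays moved the 4 to between 3 and 6, with 6 reached when Zeb2 KO replicate 3 was dropped. In that fit 4 were called lower, against 0.441% of all genes: Spic, Vcam1, Hmox1 and Hpgd. Spic and Hmox1 were named after their values were seen. Hpgd, which breaks down prostaglandins, read 7.55, 8.64 and 8.24 in WT and 6.90, 6.74 and 7.17 in Zeb2 KO (log2 -1.21, limma adjusted p = 0.168), and Vcam1, an adhesion molecule, had -0.85. Of 22 B cell genes 4 were lower (18.2%) and 0 higher. Ms4a1, which encodes CD20, read 8.09, 9.79 and 7.85 against 6.48, 7.14 and 6.02 (log2 -2.03, limma adjusted p = 0.213), the largest negative difference among genes whose arrays did not overlap. The B cell median was -0.33 with all arrays, 0.07 without WT replicate 1 (1 gene lower) and 0.14 without WT replicate 1 and Zeb2 KO replicate 3 together. None of the genes of these 3 lists was called with all arrays, and the part of such cells in the result was not tested.

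Within the TGF-beta and BMP pathway Zfyve9 was the only call among 57 genes. At an unadjusted p under 0.05, 6 were lower (10.5%, against 3.76% of all genes) and 1 higher (1.75%, against 3.64%), and the median was -0.06. Without WT replicate 2, 3 were lower. Tgfbr1, the type I receptor, read 8.22, 8.45 and 8.16 in WT and 7.96, 7.91 and 7.96 in Zeb2 KO (log2 -0.33, limma adjusted p = 0.434). Pmepa1, a SMAD-induced feedback inhibitor, read 8.15, 8.15 and 8.26 against 8.43, 8.65 and 8.60 (log2 0.38, limma adjusted p = 0.212). Ltbp2, a latent TGF-beta binding protein family member that is not among the 57, read 8.34, 8.91 and 8.35 against 7.69, 7.47 and 7.76 (log2 -0.89, limma adjusted p = 0.146). In each of these 3 genes the groups did not overlap. Of the 26 genes with a FYVE domain, the lipid-binding module of Zfyve9, 2 were lower and 1 higher at an unadjusted p under 0.05, near the 3.76% and 3.64% of all genes. Among 22 genes of reticulons and related proteins, Rtn1 was the 1 call, and Rtn4 had 0.19.

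Besides Adgrl3, given above, the latrophilin gene Adgrl2 read 6.62, 6.21 and 6.27 in WT and 6.81, 6.79 and 6.80 in Zeb2 KO (log2 0.43, limma adjusted p = 0.276). Neither was called, and 1 of 20 latrophilins and partners lower and 1 higher at an unadjusted p under 0.05 is near the background of 3.76% and 3.64%.

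Epithelial genes that ZEB factors hold down in other tissues gave no call. Of 33 measured, 0 were called and 0 had an unadjusted p under 0.05 in either direction, and the median was -0.02. At that p, 2 were higher and 4 lower without Zeb2 KO replicate 3. Cdh1, which encodes E-cadherin, the best known ZEB target, read 6.01, 5.93 and 5.96 in WT and 6.61, 6.35 and 5.85 in Zeb2 KO (log2 0.30, limma adjusted p = 0.732). Without Zeb2 KO replicate 3 it was called higher (log2 0.51, adjusted p = 0.0371), the 1 member of the list that was. In that fit 0.386% of all genes were called higher, and the list median was -0.08. The 7 E protein and ID protein genes gave 0 calls, with Id2 at -0.21 and Tcf3 at 0.07.

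Antigen presentation and cell division genes gave no call with all arrays. The median was -0.01 over 29 MHC class I and cross-presentation genes, -0.05 over 23 MHC class II genes and 0.03 over 49 cell cycle genes, and 0 were called in each. The cell cycle median had no stable sign: it was -0.04 without WT replicate 1, -0.06 without Zeb2 KO replicate 3, and -0.17 without both. Leaving out both was chosen after seeing the data. Of the 49 genes 10 were then called, where 500 of all 19938 genes were. In each MHC list 1 gene was called lower without Zeb2 KO replicate 3, where 0.441% of all genes were. Of 48 interferon-stimulated genes 4 were higher (8.33%, against 3.64% of all genes) and 2 lower (4.17%, against 3.76%) at an unadjusted p under 0.05 (median 0.10). The 4 became 2 without WT replicate 2 or Zeb2 KO replicate 1, where the latter turned the median to -0.02, and 12 without Zeb2 KO replicate 3. Dhx58, a cytosolic RNA sensor regulator, had 0.45, and Gbp4, a guanylate-binding protein, read 10.19, 9.82 and 10.24 in WT and 8.49, 9.50 and 9.51 in Zeb2 KO (log2 -0.92).

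**Figure D5:**
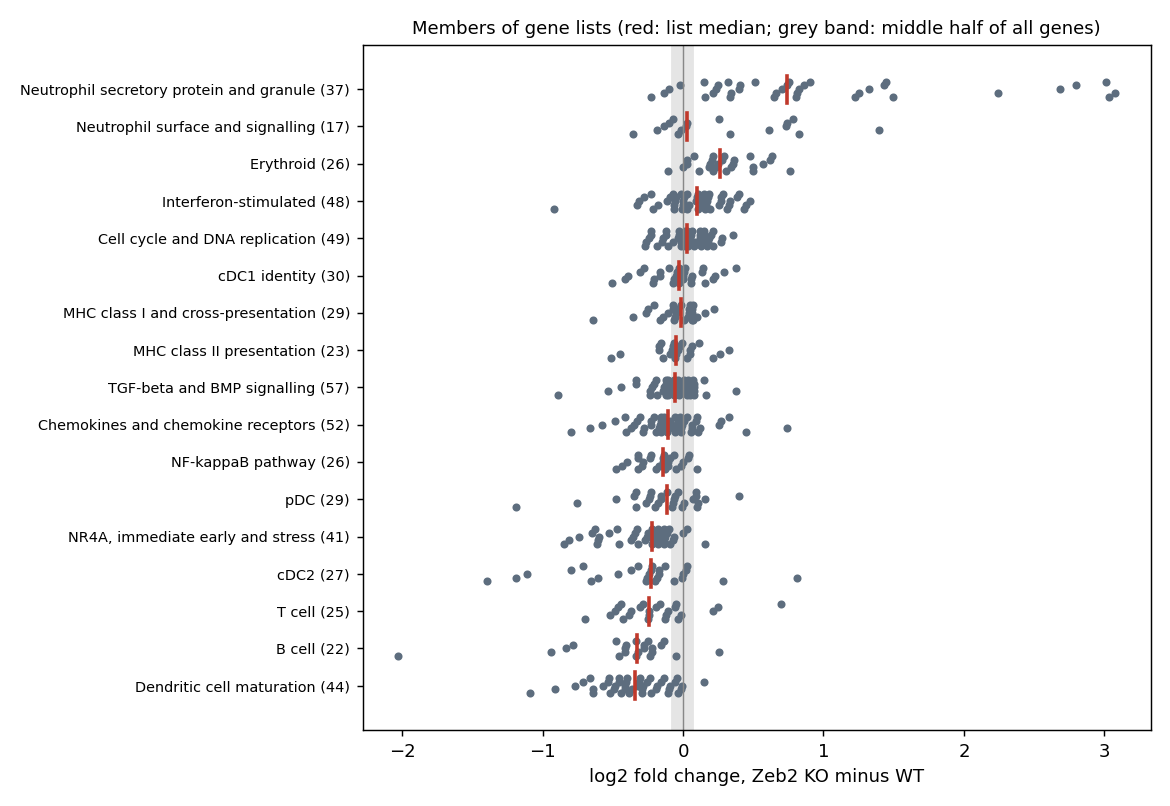
Log2 fold change (x) of every measured member of 17 gene lists (y, number measured in brackets); red bars are list medians and the grey band holds the middle 50% of all genes. The neutrophil granule list has a median of 0.74 and the dendritic cell maturation list one of -0.35, while cDC1 identity (-0.03) and cell cycle (0.03) lie within the band.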

How the data were processed

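Total RNA of sorted splenic cDC1s was amplified and hybridised to 10 arrays. The deposited values are linear intensities, which the authors made with Affymetrix Expression Console and RMA, per the submitters' processing notes; RMA corrects background, normalizes between arrays and summarises probes, which compresses small and near-background differences. Of 28853 probe sets, 21789 naming 1 gene were kept, and the 1 with the highest mean was used per gene (19938 genes; none filtered out). Log2 values were fitted with limma 3.58.1 (R 4.3.3), a mean per genotype over all 10 arrays, 6 residual degrees of freedom, and p-values were adjusted by Benjamini-Hochberg over all genes. Brackets hold 95% confidence intervals. Members, gene lists and the naming rule were chosen with earlier results of these data known. The rule takes the targeted and called genes, the 20 smallest p per direction, the 10 largest differences per direction without overlap, the 8 smallest p of each list and a panel of cDC1 genes, leaving out predicted, small non-coding and sex-linked genes and receptor segments. Promoter words were counted in the 250 bases before RefSeq starts. Alternatives changed the arrays, the block, moderation, weights, probe sets, filter, normalization and pseudocount. Replicate numbers did not pair the samples: same-numbered WT and Zeb2 KO arrays correlated at 0.040, -0.312 and -0.015 in their deviations.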

Additional observations from a re-analysis of the deposited data

Results flagged for a closer look

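Probe sets that name several genes were outside the test of genes. In a fit over all 28853 probe sets, 5 were called (0.0173%): 3 of the called genes and 2 probe sets shared by genes of the apolipoprotein L family, which can bind intracellular lipids. The first of these 2 probe sets read 7.17, 7.29 and 7.22 in WT and 6.53, 6.44 and 6.56 in Zeb2 KO (log2 -0.72, limma adjusted p = 0.0292). The second read 7.26, 7.56 and 7.30 against 6.63, 6.51 and 6.64 (log2 -0.78, limma adjusted p = 0.0400). Both name the same pair of genes, so they are not independent, and which of the genes was lower cannot be told from them. Apol7c, a family member with a probe set of its own, read 11.01, 11.30 and 11.10 in WT and 10.02, 10.34 and 10.74 in Zeb2 KO (log2 -0.77, limma adjusted p = 0.507). Each is given as a signal outside the genes compared above.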

How the results depend on the processing

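The count of 4 called genes was sensitive to the processing. It was 1 with the 6 WT and Zeb2 KO arrays alone, and 8 with the replicate number as a replicate block (1 higher, 7 lower, the 4 calls kept). No label states that these numbers pair the samples. The count was 75 with limma's array weights (33 higher, 42 lower). It was 0 with median centring or with a pseudocount of 20, where limma gave 1480 and 1548 genes at an unadjusted p under 0.05. It was 4 with the mean of probe sets, with a minimum mean log2 of 6 and with quantile normalization (3 of the 4 kept), and 5 with trended robust moderation (3 kept). With 1 array left out it ranged from 0 to 165. It was 22 without WT replicate 1, 1 without WT replicate 3, 0 without WT replicate 2 or Zeb2 KO replicate 1 or 2 (1060, 1560 and 2039 genes at an unadjusted p under 0.05), and 165 when Zeb2 KO replicate 3 was dropped. The count was 2 without either Nfil3 Zeb2 DKO array and 7 without either Zeb2 Id2 DKO array. Dropping WT replicate 1 together with Zeb2 KO replicate 3, an alternative chosen after seeing the data, gave 500 (165 higher, 335 lower). The cause was not tested. The neutrophil granule median stayed between 0.58 and 0.95 and the maturation median between -0.45 and -0.25 over all left-out arrays. Signs turned for some values that were not called, Spib at -0.48 among them, and the cause was not tested. With array weights Zeb2 had 0.097, Tcf3 -0.062 and Batf3 -0.065. With arrays left out Zeb2 ranged from -0.331 to 0.106, Tcf3 from -0.070 to 0.163, Batf3 from -0.121 to 0.165, Spib from -0.844 to 0.059 and Xcr1 from -0.020 to 0.202. The Zeb2 Id2 DKO minus Zeb2 KO difference ranged from -0.736 to 0.619 for Ngp and from -0.011 to 0.215 for Rtn1. Signal near background limits low genes such as Ly6g.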

Other observations

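Of 16 basophil and mast cell genes 10 had positive and 6 negative differences (median 0.06). At an unadjusted p under 0.05, 3 were higher (18.75%, against 3.64% of all genes) and 0 lower. Without Zeb2 KO replicate 3, 3 were called higher (0.386% of all genes) and 1, the tetraspanin gene Cd63, lower (0.441%). The 3 read higher in Zeb2 KO replicates 1 and 2 than in replicate 3. Mcpt8, a basophil protease, read 6.59, 4.95 and 4.95 in WT and 9.53, 8.66 and 5.76 in Zeb2 KO. Prss34, another basophil protease, read 7.48, 6.26 and 6.36 against 9.99, 9.26 and 6.57, and Cpa3, a mast cell and basophil carboxypeptidase, 5.15, 4.56 and 5.00 against 6.11, 6.02 and 4.92. No list of eosinophil genes was fixed. Prg2, the eosinophil major basic protein, read 7.83, 6.54 and 6.83 against 9.63, 9.55 and 7.16, and Epx, the eosinophil peroxidase, 5.20, 5.21 and 5.27 against 6.16, 6.79 and 5.05; both were named after their values were seen. None of these 5 genes was called with all arrays (adjusted p 0.472 to 0.628), and all 5 were called higher without Zeb2 KO replicate 3 (adjusted p 0.00841 to 0.0136). In Fcer1a, the IgE receptor chain of both cell types, which was also picked afterwards, the difference was 0.26, with overlapping arrays.

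Erythroid genes lay slightly higher in Zeb2 KO. Of 26 measured, 9 were higher (34.6%, against 3.64% of all genes) and 0 lower at an unadjusted p under 0.05. Of the 26, 12 were above WT on every array (5.37% of all genes were), and the median was 0.26. The 9 became 5 without WT replicate 2 and 1 without WT replicate 3, in which the list stood 0.20 log2 below the WT mean. Car2, a carbonic anhydrase, had 0.57 and Hemgn, a regulator of red cell differentiation, 0.36, and 0 of the 26 were called.

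Single arrays held large departures in genes chosen after their values were seen. Kcnma1, a potassium channel gene, read 11.56 in WT replicate 1 against 4.46 and 4.10 in the other WT arrays and 4.94, 5.50 and 5.34 in Zeb2 KO. Ighm, the IgM heavy chain, read 9.08 in the same array against 6.46 and 6.62 in WT and 6.64 to 7.31 in Zeb2 KO, and the B cell list stood 0.72 log2 above the WT mean there. Jchain, the joining chain of antibody multimers, read 10.27, 8.13 and 8.21 in WT and 10.09, 9.65 and 5.67 in Zeb2 KO.

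Other genes were low in Zeb2 KO replicates 1 and 2 only. Gclc, the catalytic subunit of glutamate-cysteine ligase, read 10.84, 10.88 and 11.04 in WT and 9.35, 9.86 and 10.95 in Zeb2 KO. Without Zeb2 KO replicate 3 it was called lower (log2 -1.32, adjusted p = 0.00757). Gp2, a glycoprotein named after its values were seen, read 9.55, 10.41 and 9.84 against 7.38, 8.12 and 10.12, and was called lower without that array (log2 -2.19, adjusted p = 0.00757). Spic, a transcription factor of red pulp macrophages chosen likewise, read 6.60, 6.78 and 6.71 against 5.93, 5.70 and 7.35, and was called lower without it as well (log2 -0.88, adjusted p = 0.00543). As Gp2 and Spic were picked with these values known, their calls without that array are no test of the pattern. Without Zeb2 KO replicate 1 or 2 instead, 0 genes were called. Among interferon-stimulated genes Irf7, Stat2, Eif2ak2 and Slfn5 were called higher without Zeb2 KO replicate 3, with log2 fold changes of 0.44 to 0.71. In that fit 0.386% of all genes were called higher. Eif2ak2 and Slfn5 were named after their values were seen.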
